A study of Homo sapiens with 12 samples.

Results

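The subject is 40 genes that encode molecular chaperones and their close helpers, read from a table of 58735 genes by taking the rows whose gene name is on a fixed list. They fall into 4 mitochondrial chaperones, 9 subunits of the cytosolic chaperonin CCT and prefoldin, 12 cytosolic heat shock proteins and cochaperones, and 15 chaperones and folding enzymes of the endoplasmic reticulum (ER). RNA was sequenced from tumor-associated macrophage-like cells (TAMs), which the authors derived from the human monocytic leukemia line THP-1 by phorbol ester (PMA), after growth in Transwell coculture with the human pancreatic cancer line AsPC-1, in 4 groups of 3 libraries. In the control group (NC) the AsPC-1 cells carried an empty vector, and in the OE-MMP28 group they overexpressed the metalloproteinase MMP28. The anti-IL-8 and anti-VEGFA groups had the OE-MMP28 coculture with a neutralizing antibody against interleukin 8 or against vascular endothelial growth factor A. A control antibody is not named for any sequenced group, and PMA and the coculture are common to all 12 libraries. THP-1 and AsPC-1 are single cell lines, and the sources used here do not say whether the 3 libraries of a group came from separate cultures, so p-values measure only the spread between these libraries.

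Chaperones bind unfolded protein chains and keep them from aggregating until they fold. In the cytosol this is shared by the HSP70 proteins with their DNAJ partners, the HSP90 proteins, the small heat shock proteins and the barrel-shaped CCT, and the stress-inducible members are switched on by the transcription factor HSF1. In the ER, HSPA5, HSP90B1, the lectins CALR and CANX and the disulfide isomerases fold secreted and membrane proteins, and many of their genes are driven by the unfolded protein response. Mitochondria have an HSP70 (HSPA9), the HSPD1 and HSPE1 chamber and the HSP90 relative TRAP1 for proteins brought in from the cytosol.

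The libraries held 15852346 to 18701195 counts, and mitochondrially encoded genes took 6.92% to 17.8% of them. Macrophage markers such as ITGAM, ITGB2, CD14 and SPI1 were counted in every library, while CD68 had at most 5 counts and MRC1 at most 4. MMP28 itself had 0 counts in all 12 libraries, so the overexpression, which was in the AsPC-1 cells, cannot be checked in them. The 12 epithelial markers listed for AsPC-1 summed to 12.2 to 15.5 CPM in control, 7.60 to 12.9 in OE-MMP28, 12.7 to 14.6 under anti-IL-8 and 13.3 to 14.1 under anti-VEGFA, with EPCAM and KRT17 at 0 throughout. The 12 macrophage markers summed to 6159 to 6997 CPM in control, 5691 to 9219 in OE-MMP28, 8410 to 10766 under anti-IL-8 and 6966 to 8758 under anti-VEGFA. Libraries also differed in how level followed exon length, from a slope of -0.06 log2 units per doubling of length in anti-VEGFA replicate 2 to 0.07 in OE-MMP28 replicate 2. CPM here is the count scaled to library size with factors from the trimmed mean of M values (TMM). In bulk RNA, fewer cells of a type and less RNA per cell cannot be told apart.

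All 40 genes passed the filter on low counts. Per length, the highest level was that of HSP90AB1, the constitutive cytosolic HSP90, at a mean of 494 FPKM (fragments scaled to gene length and library size) over the 12 libraries and a range of 448 to 537. HSPA5, the ER HSP70 also known as BiP, followed at 413 FPKM (321 to 511), so the ranges of these neighbours overlapped. CALR stood at 388 FPKM, the constitutive cytosolic HSP70 HSPA8 at 248, the prefoldin subunit PFDN2 at 236 and the small heat shock protein HSPB1 at 220. The 8 CCT subunits, which join in 1 ring, lay between 23.4 FPKM for CCT2 and 85.2 for CCT3. The stress-inducible HSP70 genes were far lower, at 16.8 FPKM for HSPA1B and 10.7 for HSPA1A. HSPA4L, an HSP110-type exchange factor, was lowest at 0.436 FPKM, with 59 to 128 counts per library.

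**Figure D1:**
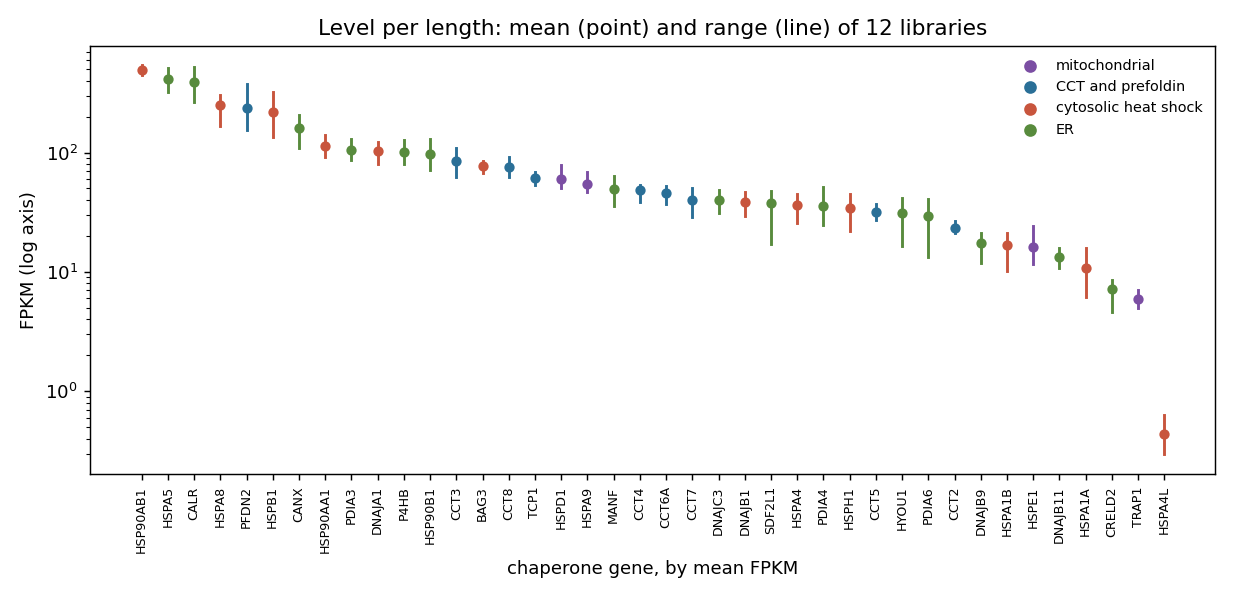
Mean (point) and range (line) of the deposited FPKM values over all 12 libraries for each of the 40 chaperone genes, on a log axis and ordered by mean, coloured by class. Cytosolic HSP90AB1 at 494 FPKM and ER HSPA5 at 413 lead, and HSPA4L at 0.436 is last.

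Replicates of a chaperone gene scattered by a median SD of 0.18 log2 units, against 0.24 over all 16046 genes tested. TCP1, the first CCT subunit, was the tightest at 0.04, with HSPA9 at 0.06. PFDN2 and the disulfide isomerase PDIA6 were the loosest at 0.43 each, then the ER HSP110 relative HYOU1 at 0.39. For PDIA6 the value rested on anti-VEGFA replicate 2, at 54.9 CPM beside 140.2 and 124 in the other two libraries of its group. That library was also the lowest of all 12 for HSPA5 and HYOU1.

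As a class, the 12 cytosolic genes summed to 0.460% ± 0.0142 (SD, n = 3) of the TMM-scaled total in control, 0.520% ± 0.00413 in OE-MMP28, 0.464% ± 0.0303 under anti-IL-8 and 0.500% ± 0.0300 under anti-VEGFA. The 15 ER genes made up 0.687% ± 0.0466, 0.611% ± 0.0250, 0.595% ± 0.0656 and 0.578% ± 0.101 in the same order. The CCT and prefoldin genes made up 0.165% ± 0.00550, 0.196% ± 0.0174, 0.190% ± 0.0101 and 0.176% ± 0.0144. The mitochondrial genes made up 0.0767% ± 0.00105, 0.0914% ± 0.00400, 0.0719% ± 0.00216 and 0.0717% ± 0.00543. All 3 OE-MMP28 libraries lay above all 3 control libraries in the cytosolic, CCT and mitochondrial sums and below them in the ER sum. As a share of unscaled counts the cytosolic sums overlapped: OE-MMP28 replicate 3 stood at 0.478% and control replicate 1 at 0.484%. The CCT, mitochondrial and ER sums stayed apart. HSP90AB1 and HSPA8 weighed most in the cytosolic sum, at means of 1547 and 1401 CPM in OE-MMP28. These sums are a description and were not tested.

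**Figure D2:**
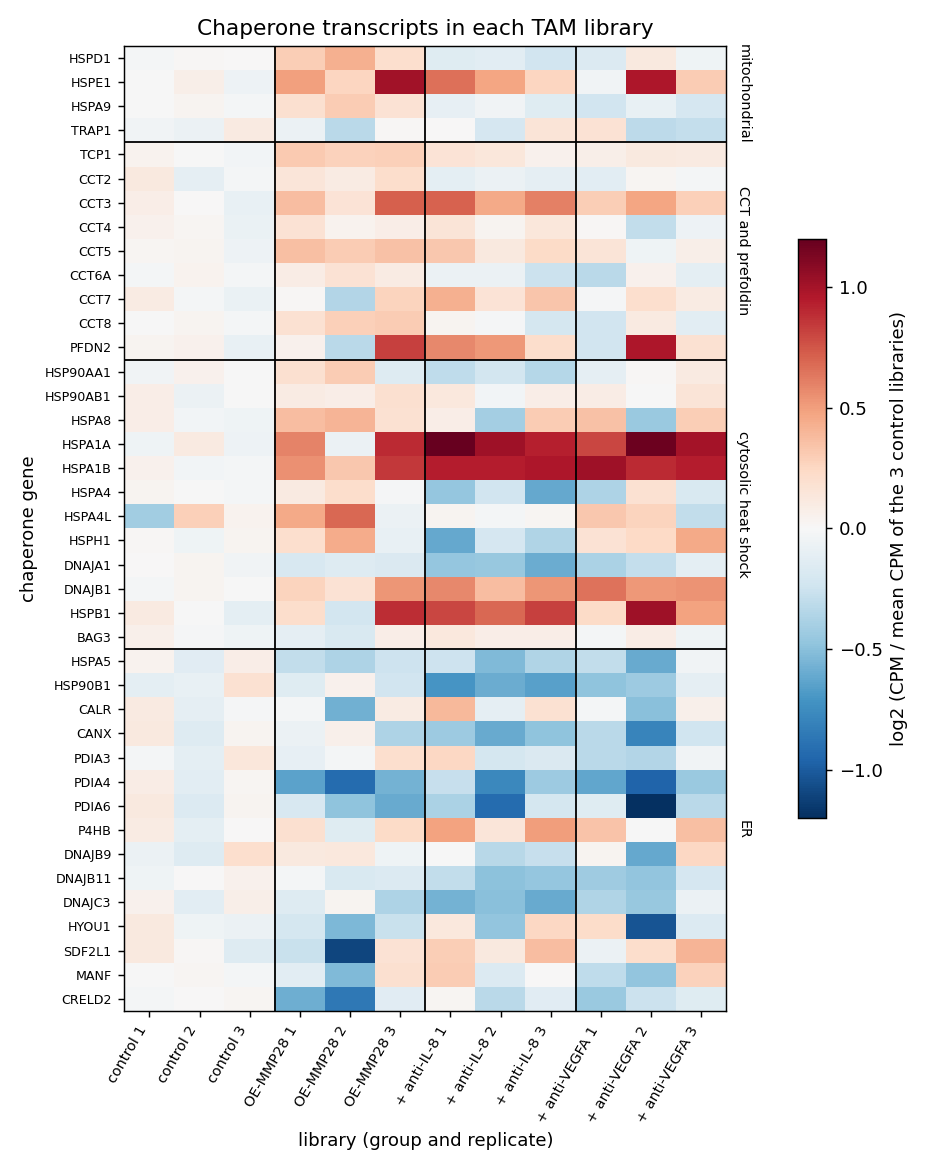
Each cell is the log2 ratio of 1 library's CPM to the mean CPM of the 3 control libraries, for the 40 chaperone genes (rows, by class) and 12 libraries (columns, by group). HSPA1A and HSPA1B are red in all 6 antibody libraries and PDIA4 is blue in all 9 libraries outside the control group.

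OE-MMP28 against control asks what the MMP28-overexpressing cancer cells did to the TAMs. At an adjusted p of 0.05 (edgeR's quasi-likelihood F test, Benjamini-Hochberg over all genes tested), 1 of the 40 genes rose and 1 fell. HSPA1B was higher by a log2 fold change of 0.59 ± 0.13 (SE, adjusted p = 0.016) and the ER disulfide isomerase PDIA4 was lower by a log2 fold change of -0.70 ± 0.15 (SE, adjusted p = 0.013). Over all genes tested 0.523% rose and 2.64% fell, and 1 gene of 40 is 2.5%, so the count of falls was at the background. By class, 9 of 9 CCT and prefoldin genes, 10 of 12 cytosolic genes and 3 of 4 mitochondrial genes had a log2 fold change above 0, against 3 of 15 ER genes. Of all genes tested, 53.3% had one above 0. The class medians were 0.26 for CCT and prefoldin, 0.26 for the cytosolic genes, 0.27 for the mitochondrial genes and -0.14 for the ER genes, beside a median of 0.02 over all genes tested. Genes of a class are read from the same libraries and are not independent replicates. At an unadjusted p under 0.05, 9 members were higher and 2 lower, where 5.93% and 8.61% of all genes were. Both calls lean on few libraries: HSPA1B missed the threshold without any 1 of the 3 control libraries or without OE-MMP28 replicate 3 (adjusted p up to 0.096), and PDIA4 missed it without control replicate 1 or 3 (up to 0.08). The count of 2 became 4 without OE-MMP28 replicate 2, where 514 genes were called in all, beside 507 with every library. Without OE-MMP28 replicate 3 the ER median was -0.27 and the CCT and prefoldin median 0.14.

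Anti-IL-8 and anti-VEGFA against the OE-MMP28 coculture ask what neutralizing each factor changed. None of the 40 genes passed the edgeR threshold in either comparison, and limma voom also called 0. With anti-IL-8 the smallest adjusted p was 0.063, and edgeR called 0% of all genes, as did limma voom. DESeq2 called 12 members there, 3 higher (HSPA1A, HSPA1B and SDF2L1) and 9 lower (HSPD1, HSPA9, CCT8, HSP90AA1, HSPA4, HSPH1, DNAJA1, HSP90B1 and DNAJC3), but it also called 23.9% of the genes it tested. At an unadjusted p under 0.05, 5 members were higher and 12 lower, where 13.4% and 15.9% of all genes were. These counts depended on single libraries: without OE-MMP28 replicate 3 edgeR called 13 members under anti-IL-8 and 4 under anti-VEGFA. Without anti-VEGFA replicate 2 it called 4 for anti-IL-8. That library is in neither group compared and enters through the shared filter, scaling and spread. The calls over all genes moved with these counts, to 4125, 1402 and 1166 in the same order, from 0, 55 and 0. With anti-VEGFA the smallest adjusted p was 0.11, and 0.343% of all genes were called by edgeR and 0.436% by limma voom. DESeq2 called HSPD1 and HSPA9 lower, among 3.23% of the genes it tested. At an unadjusted p under 0.05, 3 members were higher and 4 lower, where 10.4% and 8.44% of all genes were.

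Against control, which both antibody groups share with the OE-MMP28 comparison, more of the list passed. With anti-IL-8, 5 genes rose (HSPA1A, HSPA1B, DNAJB1, HSPB1 and CCT3) and 7 fell (HSPA4, DNAJA1, HSP90B1, CANX, PDIA4, DNAJB11 and DNAJC3). That is 12.5% and 17.5% of the list, where 9.77% of all genes rose and 10.9% fell, so the numbers by themselves lay near the background. With anti-VEGFA, HSPA1A, HSPA1B and DNAJB1 rose and PDIA4 fell, which is 7.5% and 2.5% of the list beside 5.6% and 5.37% of all genes. With library totals in place of TMM, rises were 35.9% rather than 47.2% of all calls with anti-IL-8, and no member call was lost. The 12 calls with anti-IL-8 became 7 without control replicate 2 or 3, 6 without anti-IL-8 replicate 1 and 5 without anti-IL-8 replicate 3, and the 4 with anti-VEGFA became 8 without OE-MMP28 replicate 3. Over all genes, the 3317 calls for anti-IL-8 became 1340, 1394, 1312 and 1361 in these fits, and the 1760 for anti-VEGFA became 2457. The antibody groups set against each other gave no member past the edgeR threshold, with a smallest adjusted p of 0.055 for HSPH1. There edgeR called 0.199% of all genes, limma voom 0 members and 0.193% of genes, and DESeq2 HSPH1 alone of the members among 1.58% of genes. At an unadjusted p under 0.05, 5 members were higher and 0 lower with anti-VEGFA than with anti-IL-8, where 9.39% and 5.62% of all genes were.

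**Figure D3:**
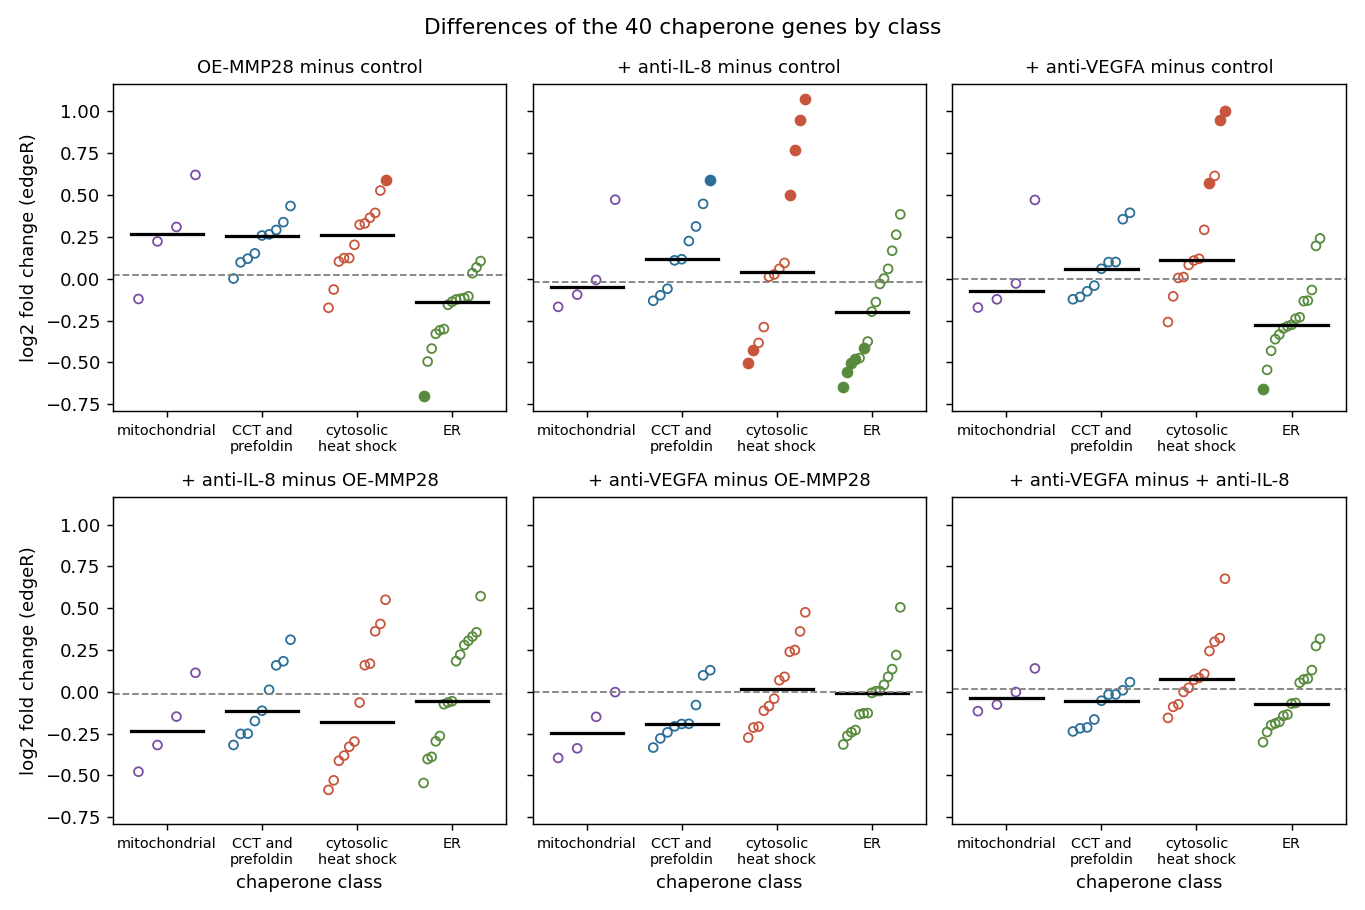
Log2 fold changes of the 40 chaperone genes (points, coloured by class) in the 6 comparisons, with filled points for genes past an adjusted p of 0.05, a black bar for the class median and a dashed line for the median of all genes tested. In OE-MMP28 minus control the ER median of -0.14 lies below the line and the other 3 class medians, 0.26 to 0.27, lie above it.

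HSPA1A and HSPA1B, the stress-inducible HSP70 pair, gave the largest rises among the 40 genes in both antibody groups against control. HSPA1A (ENSG00000204389, GRCh38 chromosome 6, 31815464 to 31817946, plus strand) stood at 15.9, 17.6 and 15.7 CPM in control, 24.8, 15.6 and 30.5 in OE-MMP28, 39.3, 33.2 and 31.3 under anti-IL-8 and 28.6, 37.1 and 32.8 under anti-VEGFA. Its 6 antibody libraries all lay above the 3 control libraries, by a log2 fold change of 1.08 ± 0.19 (SE, adjusted p = 0.0013) under anti-IL-8 and by a log2 fold change of 1.00 ± 0.19 (SE, adjusted p = 0.0029) under anti-VEGFA, which is 2.11-fold and 2.00-fold. HSPA1B (ENSG00000204388, chromosome 6, 31827735 to 31830255, plus strand) stood at 27.8, 26.2 and 26.4 CPM in control, 39.1, 33.6 and 48.3 in OE-MMP28, 51.6, 51.3 and 52.6 under anti-IL-8 and 54.3, 49.7 and 51.4 under anti-VEGFA. All 9 libraries outside the control group lay above it, by a log2 fold change of 0.95 ± 0.13 (SE, adjusted p = 0.00013) under anti-IL-8 and by a log2 fold change of 0.95 ± 0.13 (SE, adjusted p = 0.00015) under anti-VEGFA, or 1.93-fold in both. The OE-MMP28 means lay between for both genes, with HSPA1A at a log2 difference of 0.53 ± 0.19 (SE, adjusted p = 0.18) against control. HSPA1A in OE-MMP28 replicate 2, at 15.6 CPM, was no higher than in control.

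Against OE-MMP28 the pair did not pass the test: HSPA1A stood at a log2 difference of 0.55 ± 0.19 (SE, adjusted p = 0.08) under anti-IL-8 and a log2 difference of 0.48 ± 0.19 (SE, adjusted p = 0.19) under anti-VEGFA, and HSPA1B at a log2 difference of 0.36 ± 0.13 (SE, adjusted p = 0.089) and a log2 difference of 0.36 ± 0.13 (SE, adjusted p = 0.16). Between the antibodies the difference of HSPA1B was -0.0008 (95% confidence interval -0.26 to 0.25) and that of HSPA1A -0.07 (-0.44 to 0.29). The 2 genes are near copies, with 69.9% of the 100-base windows of HSPA1A found in HSPA1B, so the counting could split reads between them. AL671762.1 on the same strand also shares 36.5% of the exon bases of HSPA1B. Summed into 1 feature, the pair was higher by 0.57 ± 0.14 (SE, adjusted p = 0.032) in OE-MMP28, by 1.00 ± 0.14 (adjusted p = 0.00015) for anti-IL-8 and by 0.97 ± 0.14 (adjusted p = 0.00025) with anti-VEGFA, all against control.

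DNAJB1, the stress-inducible HSP40 that feeds clients to HSP70, was the third gene to rise in both antibody groups against control. DNAJB1 (ENSG00000132002, chromosome 19, 14514770 to 14529770, minus strand) stood at 109, 113 and 109.8 CPM in control, 133, 124 and 159.7 in OE-MMP28, 165, 143 and 159.99 under anti-IL-8 and 174, 158 and 160.2 under anti-VEGFA. All 9 libraries outside control were above the 3 control libraries, and the test passed under anti-IL-8 (log2 fold change 0.50 ± 0.12 SE, adjusted p = 0.0097) and under anti-VEGFA (log2 fold change 0.57 ± 0.12 SE, adjusted p = 0.0061) but not in OE-MMP28 (a log2 difference of 0.33 ± 0.12 (SE, adjusted p = 0.18)). HSPA1A, HSPA1B and DNAJB1 kept these calls when any 1 of the 12 libraries was left out, and when exon length and GC content were modelled.

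The stretches before the start sites of these 3 genes, with that of HSPA5 for the ER, show where the elements searched for lie. They are the 250 bases before a RefSeq start on GRCh38.p14, on the gene's strand, with the heat shock element core GAANNTTC in capitals in the first 3 and the ER stress element (CCAAT, then 9 bases, then CCACG) in capitals in HSPA5. HSPA1A is chr6:31815293-31815542, HSPA1B chr6:31827488-31827737, DNAJB1 chr19:14518398-14518647 and HSPA5 chr9:125241344-125241593, the first 2 on the plus strand and the others on the minus strand.
HSPA1A: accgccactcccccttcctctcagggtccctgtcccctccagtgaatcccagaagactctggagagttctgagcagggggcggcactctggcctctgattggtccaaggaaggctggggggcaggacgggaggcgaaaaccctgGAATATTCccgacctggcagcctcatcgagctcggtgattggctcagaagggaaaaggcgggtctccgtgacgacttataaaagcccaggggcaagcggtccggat
HSPA1B: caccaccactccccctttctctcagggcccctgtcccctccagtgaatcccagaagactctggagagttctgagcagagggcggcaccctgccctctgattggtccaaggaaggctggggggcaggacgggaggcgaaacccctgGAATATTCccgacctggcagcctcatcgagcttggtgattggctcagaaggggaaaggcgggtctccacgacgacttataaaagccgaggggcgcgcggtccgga
DNAJB1: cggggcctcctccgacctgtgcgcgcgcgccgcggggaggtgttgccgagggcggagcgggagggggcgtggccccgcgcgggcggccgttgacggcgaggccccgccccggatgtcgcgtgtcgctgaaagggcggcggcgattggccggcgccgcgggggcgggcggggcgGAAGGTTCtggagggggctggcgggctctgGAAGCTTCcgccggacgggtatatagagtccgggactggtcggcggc
HSPA5: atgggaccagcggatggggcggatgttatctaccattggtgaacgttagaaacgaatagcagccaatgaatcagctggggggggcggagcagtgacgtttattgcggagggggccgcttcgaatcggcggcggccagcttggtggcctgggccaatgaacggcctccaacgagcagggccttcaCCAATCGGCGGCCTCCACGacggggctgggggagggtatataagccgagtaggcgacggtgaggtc
The heat shock core ends 98 bases before the start in HSPA1A and 97 in HSPA1B, and DNAJB1 has 2 cores that end at 69 and 39 bases. In HSPA5 the ER stress element ends 47 bases before the start.

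RefSeq windows were at hand for 37 of the 40 genes, and PFDN2, PDIA3 and CCT6A had none in the table used. The core GAANNTTC, which reads the same on both strands, was in at least 1 window of 8 of 12 cytosolic genes (66.7%), 1 of 4 mitochondrial genes, 2 of 7 CCT genes and 1 of 14 ER genes, against 7.05% of 27305 genes. The ER stress element, searched on both strands, was in 6 of 14 ER genes (HSPA5, HSP90B1, CALR, CANX, PDIA6 and CRELD2) and in 0.0916% of all genes. Its second form (ATTGG, 1 base, then CCACG) was in HYOU1 and SDF2L1 and in 0.0659% of all genes, and TGACGTGG was in HYOU1 and in 0.78%. Genes with several starts have several windows, and a match describes the letters and does not show a bound site. The core was also in genes without a call or with a fall: HSP90AB1 and HSPA8 hold it in a form with 3 units and passed no test, and DNAJA1 holds it and fell with anti-IL-8 against control.

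**Figure D4:**
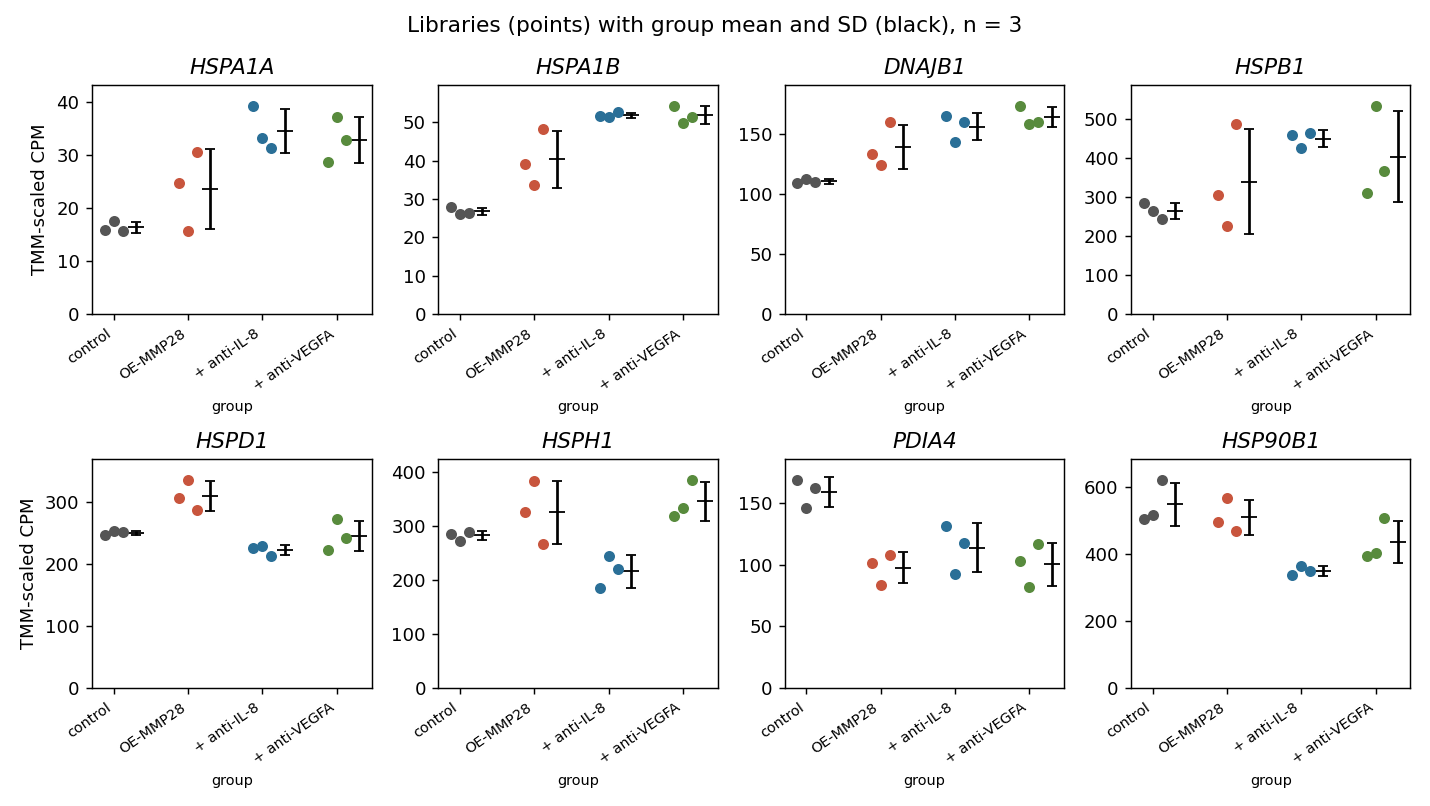
TMM-scaled CPM in each library (coloured points), with the group mean and SD in black (n = 3), for 8 chaperone genes in the 4 groups, each axis starting at 0. HSPA1B sits at 49.7 to 54.3 CPM in the 6 antibody libraries and at 26.2 to 27.8 in control, and PDIA4 at 146 to 169 in control and at 82.0 to 132 elsewhere.

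Among the other cytosolic genes, HSPB1 (HSP27), a small heat shock protein that holds unfolded clients, stood at 283, 263 and 243 CPM in control, 305, 225 and 486 in OE-MMP28, 459, 424 and 463 under anti-IL-8 and 309, 533 and 367 under anti-VEGFA. It rose with anti-IL-8 against control (log2 fold change 0.77 ± 0.22 SE, adjusted p = 0.023) and stood at a log2 difference of 0.61 ± 0.22 (SE, adjusted p = 0.082) with anti-VEGFA. OE-MMP28 spanned both ends of the scale, since replicate 3 lay within the range of the antibody libraries and replicate 2 lay below control. With exon length and GC content modelled, the anti-IL-8 difference of HSPB1 was 0.32 and no longer passed (adjusted p = 0.13), and leaving out any 1 of 4 libraries (control replicate 2 or 3, anti-IL-8 replicate 1 or 3) also lost the call, at an adjusted p of at most 0.092.

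HSPH1 (HSP105) and HSPA4, exchange factors that reset HSP70, and DNAJA1, an HSP40 of the constitutive kind, had their lowest group means with anti-IL-8. HSPH1 stood at 285, 273 and 288 CPM in control, 325, 383 and 266 in OE-MMP28, 184, 245 and 219.7 under anti-IL-8 and 317, 333 and 386 under anti-VEGFA. Its anti-IL-8 libraries lay below all others, at a log2 difference of -0.59 ± 0.15 (SE, adjusted p = 0.063) against OE-MMP28 and a log2 difference of -0.38 ± 0.15 (SE, adjusted p = 0.068) against control, while anti-VEGFA over anti-IL-8 was a log2 difference of 0.68 ± 0.15 (SE, adjusted p = 0.055). HSPA4 stood at 205, 199.8 and 197 CPM in control, 216, 232 and 199 in OE-MMP28, 145, 172 and 131 under anti-IL-8 and 155, 227 and 177 under anti-VEGFA. It fell with anti-IL-8 against control (log2 fold change -0.43 ± 0.14 SE, adjusted p = 0.043), but not with length and GC modelled (-0.15, adjusted p = 0.46), nor without any 1 of 7 libraries, all 3 controls, anti-IL-8 replicates 1 and 3, OE-MMP28 replicate 1 and anti-VEGFA replicate 3 (adjusted p up to 0.21). DNAJA1 stood at 332, 339 and 319.8 CPM in control, 289, 297 and 293 in OE-MMP28, 239.8, 241 and 218 under anti-IL-8 and 254, 270.5 and 303 under anti-VEGFA. All 9 libraries outside control lay below it, and it fell with anti-IL-8 against control (log2 fold change -0.50 ± 0.11 SE, adjusted p = 0.0069), an adjusted p of 0.052 without anti-IL-8 replicate 3.

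The abundant cytosolic chaperones passed no test of the main edgeR fit (all 12 libraries, low counts filtered, TMM). HSP90AB1 ran from 1349 to 1624 CPM over the 12 libraries. HSP90AA1, the inducible HSP90, lay between 482 and 751 CPM and stood at a log2 difference of -0.41 ± 0.13 (SE, adjusted p = 0.071) with anti-IL-8 against OE-MMP28. Without OE-MMP28 replicate 3 edgeR called HSP90AA1 lower there, among 4125 genes in all. With anti-IL-8 against control it was called lower in a fit of only the 2 groups, among 6039 genes. HSPA8 ran from 821 to 1482 CPM, lowest in anti-VEGFA replicate 2 and anti-IL-8 replicate 2. BAG3, a cochaperone of HSP70 in selective autophagy, stayed between 188 and 233 CPM. HSPA4L, the member with the lowest log2 fold change of its class in anti-VEGFA against OE-MMP28, stood at 3.48, 5.66 and 4.80 CPM in control, 6.38, 7.48 and 4.43 in OE-MMP28, 4.76, 4.57 and 4.74 under anti-IL-8 and 5.82, 5.59 and 3.79 under anti-VEGFA, and its groups overlapped.

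Of the chaperonin, which folds actin and tubulin among others, CCT3 alone passed a test in the main edgeR fit. Without OE-MMP28 replicate 3, CCT7 was called higher with anti-IL-8 against OE-MMP28, among 4125 genes in all. A fit of only the 2 groups called CCT7 and PFDN2 higher with anti-IL-8 against control, among 6039 genes. Exon length and GC content were not modelled in these fits. With length and GC content modelled, CCT5 also passed with anti-IL-8 against control. CCT3 (ENSG00000163468, chromosome 1, 156308968 to 156367873, minus strand) stood at 284, 270.2 and 253 CPM in control, 347, 302 and 442 in OE-MMP28, 439, 369.8 and 409 under anti-IL-8 and 331, 374 and 328 under anti-VEGFA. All 9 libraries outside control lay above it, with a log2 fold change of 0.59 ± 0.14 (SE, adjusted p = 0.0087) for anti-IL-8 against control and a log2 difference of 0.43 ± 0.14 (SE, adjusted p = 0.12) for OE-MMP28. Leaving out any 1 library kept the anti-IL-8 call, at an adjusted p of at most 0.049. CCT7 and CCT8 took the highest and lowest log2 fold change of the class with anti-IL-8 against OE-MMP28, and neither passed the threshold there in the main edgeR fit. Whether the subunits of the ring ran together was not tested.

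CCT7 stood at 144, 132 and 127 CPM in control, 136, 106 and 162 in OE-MMP28, 181, 151 and 169.9 under anti-IL-8 and 133, 155 and 144 under anti-VEGFA. It was a log2 difference of 0.31 ± 0.14 (SE, adjusted p = 0.16) with anti-IL-8 against OE-MMP28, with OE-MMP28 replicate 2 the lowest of the 12 libraries. CCT8 stood at 249, 255 and 246 CPM in control, 284, 304 and 309 in OE-MMP28, 256, 248 and 215 under anti-IL-8 and 213, 269 and 229.7 under anti-VEGFA. It was highest in the 3 OE-MMP28 libraries, with a log2 difference of -0.32 ± 0.12 (SE, adjusted p = 0.1) for anti-IL-8 and a log2 difference of -0.33 ± 0.12 (SE, adjusted p = 0.17) for anti-VEGFA against OE-MMP28. TCP1 and CCT5 were also higher in each OE-MMP28 library than in any control, by a log2 difference of 0.29 ± 0.11 (SE, adjusted p = 0.19) and a log2 difference of 0.34 ± 0.11 (SE, adjusted p = 0.13), and DESeq2 called TCP1, CCT3 and CCT5 in that comparison, among 4.44% of the genes it tested. CCT2 (93.0 to 118 CPM), CCT4 (109.9 to 152) and CCT6A (147 to 207) passed no test. PFDN2, a prefoldin subunit that hands actin and tubulin chains to CCT, stood at 135, 137 and 124 CPM in control, 137, 106 and 234 in OE-MMP28, 198, 189.7 and 153 under anti-IL-8 and 113, 258 and 150.3 under anti-VEGFA. Its OE-MMP28 and anti-VEGFA values each spread over a more than 2-fold range, and the largest difference was a log2 difference of 0.45 ± 0.26 (SE, adjusted p = 0.23) with anti-IL-8 against control.

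None of the 4 mitochondrial genes passed the threshold in any of the 6 comparisons in the main edgeR fit or in limma voom. Other edgeR fits called some of them. HSPD1 was lower with anti-IL-8 against OE-MMP28 without a filter, with a replicate block, and without OE-MMP28 replicate 3 or anti-VEGFA replicate 2. In these fits 1438, 795, 4125 and 1166 genes were called in all. HSPE1 was called higher against control in some fits, and HSPA9 lower with anti-VEGFA against OE-MMP28 without OE-MMP28 replicate 3. Of the 4, HSPD1 and HSPA9 fell with each antibody against OE-MMP28 at an unadjusted edgeR p under 0.05, and DESeq2 called the same 2. Falls at that unadjusted p made up 15.9% of the 16046 genes tested in the anti-IL-8 comparison and 8.44% in the anti-VEGFA one. DESeq2 calls in either direction took 23.9% and 3.23% of the genes it tested, in the same order. HSPD1 (HSP60), the chamber that folds imported proteins, stood at 247, 253 and 251 CPM in control, 306, 336 and 287 in OE-MMP28, 225, 229 and 213 under anti-IL-8 and 223, 272 and 241 under anti-VEGFA. The 3 OE-MMP28 libraries were the highest of the 12 and the 3 anti-IL-8 libraries lay below every control, with a log2 difference of 0.31 ± 0.12 (SE, adjusted p = 0.2) for OE-MMP28 against control and a log2 difference of -0.48 ± 0.12 (SE, adjusted p = 0.063) for anti-IL-8 against OE-MMP28. HSPA9 (mortalin), the mitochondrial HSP70, stood at 457, 469.9 and 452 CPM in control, 524, 569 and 517 in OE-MMP28, 429, 445 and 417 under anti-IL-8 and 392, 433 and 399 under anti-VEGFA. It had the same shape, with OE-MMP28 highest throughout, at a log2 difference of -0.32 ± 0.11 (SE, adjusted p = 0.084) for anti-IL-8 and a log2 difference of -0.40 ± 0.11 (SE, adjusted p = 0.11) for anti-VEGFA against OE-MMP28. For anti-VEGFA against OE-MMP28 the 95% confidence interval of HSPD1 was -0.57 to -0.11 and that of HSPA9 was -0.62 to -0.18. These intervals are not adjusted for the number of genes, and the adjusted p of HSPD1 there was 0.15 (edgeR).

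HSPE1 (HSP10), the lid of the HSPD1 chamber, stood at 24.2, 25.5 and 23.3 CPM in control, 34.1, 29.1 and 49.1 in OE-MMP28, 38.4, 33.9 and 29.1 under anti-IL-8 and 23.7, 47.6 and 29.97 under anti-VEGFA. It stood at a log2 difference of 0.62 ± 0.22 (SE, adjusted p = 0.16) in OE-MMP28 against control, with its highest values in OE-MMP28 replicate 3 and anti-VEGFA replicate 2. HSPD1 and HSPE1 lie head to head, with outermost RefSeq starts 105 bases apart, and HSPE1 shares 23.9% of its exon bases with HSPD1 on the other strand or HSPE1-MOB4 on its own, so reads there cannot be assigned with certainty. TRAP1, a mitochondrial HSP90 relative, stood at 31.7, 31.1 and 35.4 CPM in control, 31.2, 26.1 and 32.96 in OE-MMP28, 32.9, 28.4 and 36.4 under anti-IL-8 and 36.9, 26.4 and 26.8 under anti-VEGFA. Its groups overlapped in all comparisons, and 29.3% of its exon bases lie under other genes.

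In the ER, PDIA4 was the one gene to pass the test against control in all 3 other groups, as HSPA1B did in the cytosol. PDIA4 (ENSG00000155660, chromosome 7, 149003062 to 149028641, minus strand), a disulfide isomerase also called ERp72, stood at 169, 146 and 162 CPM in control, 102, 83.97 and 108 in OE-MMP28, 132, 92.8 and 118 under anti-IL-8 and 103, 81.97 and 117 under anti-VEGFA. The 9 libraries outside control lay below all 3 controls, and it fell in OE-MMP28 (log2 fold change -0.70 ± 0.15 SE, adjusted p = 0.013, 0.614-fold), under anti-IL-8 (log2 fold change -0.48 ± 0.15 SE, adjusted p = 0.035) and under anti-VEGFA (log2 fold change -0.66 ± 0.15 SE, adjusted p = 0.011). These 3 comparisons share the control libraries. The antibody groups did not differ from OE-MMP28 beyond the spread, at a log2 difference of 0.22 ± 0.15 (SE, adjusted p = 0.34) and a log2 difference of 0.04 ± 0.15 (SE, adjusted p = 0.91). With anti-VEGFA the call was lost without control replicate 1 (adjusted p = 0.055), and with anti-IL-8 it was lost without any 1 of the 6 libraries compared (up to 0.14). None of the motifs searched was in the windows of PDIA4.

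HSP90B1 (GRP94), the ER HSP90, fell with anti-IL-8 against control and kept that call without any 1 library. HSP90B1 (ENSG00000166598, chromosome 12, 103930107 to 103953645, plus strand) stood at 504, 515 and 621 CPM in control, 493, 566 and 467 in OE-MMP28, 335, 362 and 348 under anti-IL-8 and 392, 403 and 506 under anti-VEGFA. The 3 anti-IL-8 libraries were the lowest of the 12, with a log2 fold change of -0.65 ± 0.14 (SE, adjusted p = 0.0044) against control and a log2 difference of -0.55 ± 0.14 (SE, adjusted p = 0.063) against OE-MMP28. With anti-VEGFA it stood at a log2 difference of -0.33 ± 0.14 (SE, adjusted p = 0.12) against control.

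CANX, the membrane lectin that holds glycoproteins in the ER, and 2 DNAJ partners of HSPA5 fell in the same comparison, anti-IL-8 against control. CANX stood at 1293, 1068 and 1216 CPM in control, 1139, 1242 and 920.1 in OE-MMP28, 884, 784 and 854 under anti-IL-8 and 952, 690.01 and 1012 under anti-VEGFA, a log2 fold change of -0.50 ± 0.16 (SE, adjusted p = 0.032). DNAJB11 (ERdj3), which shares 23.2% of its exon bases with other genes, stood at 85.8, 88.9 and 91.8 CPM in control, 87.5, 78.3 and 79.5 in OE-MMP28, 72.4, 63.2 and 64.2 under anti-IL-8 and 66.1, 64.00 and 77.4 under anti-VEGFA, a log2 fold change of -0.42 ± 0.12 (SE, adjusted p = 0.021). DNAJC3 (p58IPK) stood at 275, 242 and 277 CPM in control, 237, 270.3 and 205 in OE-MMP28, 178, 187 and 174 under anti-IL-8 and 206, 194 and 252 under anti-VEGFA, a log2 fold change of -0.56 ± 0.13 (SE, adjusted p = 0.0093). For all 3 genes every anti-IL-8 library lay below every control library. These calls were weaker than that of HSP90B1: with exon length and GC content modelled the differences were -0.29 for CANX (adjusted p = 0.14), -0.14 for DNAJB11 (adjusted p = 0.47) and -0.22 for DNAJC3 (adjusted p = 0.16). CANX and DNAJB11 also missed the threshold without any 1 of the 6 libraries compared (up to 0.11 and 0.095), and DNAJC3 without anti-IL-8 replicate 1 or 3 (up to 0.056).

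HSPA5, the sensor-binding ER HSP70 whose transcript is a usual marker of the unfolded protein response, ran at 1753 to 2036 CPM in control and 1490 to 1622 in OE-MMP28, and these groups did not overlap. Its differences against control were a log2 difference of -0.30 ± 0.15 (SE, adjusted p = 0.37) in OE-MMP28, a log2 difference of -0.38 ± 0.15 (SE, adjusted p = 0.078) under anti-IL-8 and a log2 difference of -0.30 ± 0.15 (SE, adjusted p = 0.21) under anti-VEGFA. P4HB, the main protein disulfide isomerase, had the highest log2 fold change of the ER class against control in all 3 groups and stood at 504, 435 and 474 CPM in control, 539.7, 427 and 554 in OE-MMP28, 657, 521 and 667 under anti-IL-8 and 599, 468 and 603 under anti-VEGFA. It stood at a log2 difference of 0.38 ± 0.15 (SE, adjusted p = 0.07) with anti-IL-8 against control. SDF2L1, a partner of HSPA5 complexes, stood at 43.9, 40.9 and 36.4 CPM in control, 33.5, 18.9 and 45.6 in OE-MMP28, 49.6, 43.7 and 52.3 under anti-IL-8 and 38.6, 46.8 and 53.5 under anti-VEGFA. It had the highest ER difference from OE-MMP28 with both antibodies, a log2 difference of 0.57 ± 0.22 (SE, adjusted p = 0.1) and a log2 difference of 0.50 ± 0.22 (SE, adjusted p = 0.22), where OE-MMP28 replicate 2 was the lowest of all 12 libraries.

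The other ER genes passed no test of the main edgeR fit in the 6 comparisons. CRELD2, an ER stress-inducible folding factor, was at 43.1 to 44.6 CPM in control and 24.3 to 40.02 in OE-MMP28, a log2 difference of -0.49 ± 0.16 (SE, adjusted p = 0.12). CRELD2 was called lower there with library totals, among 497 genes, and without OE-MMP28 replicate 3, among 429. With length and GC content modelled it was called lower against control in OE-MMP28 and under both antibodies. CALR, the soluble partner of CANX, ran from 725 to 1408 CPM and PDIA3, the isomerase that works with both lectins, from 367 to 554. PDIA6 ran from 54.9 to 168 CPM, and 25.2% of its exon bases lie under ATP6V1C2 on the other strand. Without a filter PDIA6 was called lower against control under both antibodies, among 3345 genes for anti-IL-8 and 2112 for anti-VEGFA. It was also called lower with anti-IL-8 in a fit of only the 2 groups, among 6039 genes. HYOU1, at 253 to 287 CPM in control and 183 to 229.5 in OE-MMP28, stood at a log2 difference of -0.33 ± 0.23 (SE, adjusted p = 0.57). DNAJB9, an HSPA5 partner (33.7 to 61.1 CPM), and MANF, a secreted ER stress-inducible factor (85.8 to 153), overlapped among all 4 groups.

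Several differences moved with exon length. Over the 40 genes the Spearman correlation of log2 fold change with exon length was -0.47 with anti-IL-8 against control (-0.20 over all 16046 genes tested), -0.32 with anti-VEGFA against control (-0.12), -0.53 with anti-IL-8 against OE-MMP28 (-0.19), -0.45 with anti-VEGFA against OE-MMP28 (-0.10), -0.07 in OE-MMP28 against control (-0.07) and, with the opposite sign, 0.26 in anti-VEGFA against anti-IL-8 (0.15). These points share their libraries and are a description. The 5 genes that rose with anti-IL-8 have 1634 (HSPB1) to 4018 (CCT3) exon bases and the 7 that fell 2730 (DNAJA1) to 6235 (CANX). With length and GC content modelled, 13 of the 18 member calls over the 6 comparisons were kept, and the other 5, all with anti-IL-8 against control, are those of HSPA4, HSPB1, CANX, DNAJB11 and DNAJC3. The same model added HSPA1A, DNAJB1 (both higher) and CRELD2 (lower) in OE-MMP28 against control. With anti-IL-8 against control it added CCT5 (higher) and CRELD2 (lower). With anti-VEGFA against control it added CCT3, HSPH1 (both higher) and CRELD2 (lower), and against anti-IL-8 HSPH1 (higher). Over all genes it called 909, 1954, 1689 and 158 in the same order, where the fit without it called 507, 3317, 1760 and 32. The part of RNA quality in these differences was not tested.

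A wider list of pathway genes that are not among the 40 gave 0 edgeR calls in OE-MMP28 against control and in anti-IL-8 against OE-MMP28. It has 17 mitochondrial import and quality control genes, 13 prefoldin and tubulin folding genes, 40 tested cytosolic cochaperones and 49 tested genes of ER folding and the unfolded protein response. In OE-MMP28 against control 9 of these were higher and 5 lower at an unadjusted p under 0.05, which is 7.56% and 4.2% of the 119 beside 5.93% and 8.61% of all genes. With anti-IL-8 against OE-MMP28 24 were higher and 28 lower, or 20.2% and 23.5% beside 13.4% and 15.9%. DESeq2 called 2 and 33 of them, where it called 4.44% and 23.9% of the genes it tested, and limma voom 0 and 0. HSPA2, an HSP70 best known from the testis, was the exception with anti-VEGFA: it stood at 2.95, 2.25 and 4.32 CPM in control, 3.74, 3.92 and 4.81 in OE-MMP28, 4.44, 5.22 and 2.98 under anti-IL-8 and 9.80, 11.9 and 13.6 under anti-VEGFA. The anti-VEGFA libraries lay above the other 9, and HSPA2 rose by 1.51 ± 0.24 (SE, adjusted p = 0.01) against OE-MMP28, by 1.89 ± 0.24 (adjusted p = 5.7e-05) against control and by 1.48 ± 0.24 (adjusted p = 0.011) against anti-IL-8. With length and GC content modelled the difference from OE-MMP28 was 1.61 (adjusted p = 0.0092).

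With anti-IL-8 against control, 5 mitochondrial genes rose and 2 fell, 0 prefoldin and tubulin folding genes rose and 3 fell, 11 cytosolic cochaperones rose and 3 fell, and 8 ER genes rose and 7 fell. In all 20.2% of the 119 rose and 12.6% fell, beside 9.77% and 10.9% of all genes tested, and the list as a whole was not tested. The largest rises were those of TIMM44 (0.80), which tethers HSPA9 to the import channel, HSPBP1 (0.79), an HSP70 exchange factor, CLPP (0.79), a mitochondrial protease, DNAJB2 (0.76) and TRIB3 (0.76), a target of the unfolded protein response. The largest falls were those of DNAJB4 (-0.96), ERO1B (-0.96), an oxidase of the disulfide isomerases, EDEM1 (-0.81) and SEL1L (-0.61), which act in ER-associated degradation, and YME1L1 (-0.65), a mitochondrial protease. With length and GC content modelled, 16 of these 39 calls were kept, among the genes named here those of TIMM44, CLPP, DNAJB2, TRIB3, ERO1B, EDEM1 and YME1L1. With anti-VEGFA against control, the 4 groups gave 2 and 1, 0 and 0, 5 and 1, and 1 and 2 rises and falls in that order, in all 6.72% and 3.36% of the 119 beside 5.6% and 5.37% of all genes. After HSPA2 the largest were DNAJB2 (0.72), TIMM44 (0.60), the HSP90 cochaperone FKBP4 (0.55) and the peptide loading factor TAPBP (0.53), with falls of FKBP5 (-0.74), ERO1B (-0.60), EDEM1 (-0.59) and the mitochondrial unfoldase CLPX (-0.46). With length and GC content modelled 7 of these 12 calls were kept, and those of TIMM44 (adjusted p = 0.05, just above the threshold), TAPBP (0.16), SPG7 (0.1), SGTA (0.051) and HSF1 (0.28) were lost.

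HSF1, the heat shock transcription factor, was singled out after its values were seen. It stood at 97.6, 91.1 and 86.4 CPM in control, 103, 83.5 and 125 in OE-MMP28, 139, 130.01 and 140.3 under anti-IL-8 and 128, 140.5 and 118 under anti-VEGFA, and it rose by 0.57 ± 0.14 (SE, adjusted p = 0.0092) with anti-IL-8 and by 0.49 ± 0.14 (adjusted p = 0.029) with anti-VEGFA against control. With length and GC content modelled these became 0.20 (adjusted p = 0.17) and 0.16 (adjusted p = 0.28), so the call on the HSF1 transcript was lost where those of HSPA1A, HSPA1B and DNAJB1 were kept.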

How the data were processed

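Gene counts of the 12 THP-1 libraries were made by the authors and deposited as 1 table of 58735 genes. The submitters' processing notes name HISAT2 2.0.5 and featureCounts 1.5.0-p3. Genome build, annotation and strand setting are not given in the sources used here, but starts and ends equal those of GENCODE 29 (GRCh38) in 58724 rows. The FPKM values are the authors' own, deposited beside the counts, and were used only for levels. The study's methods speak of lysed tumor cells, while its results and the labels name TAMs and THP-1. The table also holds 30 columns of the authors' own comparisons (log2 fold changes and p-values), which were not used.

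Counts were analysed in R 4.3.3 with edgeR 4.0.16: filterByExpr (minimum count 10) kept 16046 genes, TMM factors scaled the libraries, and quasi-likelihood models of all 12 libraries, with the group as the factor, gave 6 comparisons, adjusted by Benjamini-Hochberg within each. Log2 fold changes use a prior count of 0.125. Confidence intervals (95%) are the log2 fold change ± 1.96 SE, without adjustment for the number of genes. They are somewhat narrower than the quasi-likelihood test allows. For HSPA9 in OE-MMP28 against control the interval was 0.0037 to 0.44, where that test gave an unadjusted p of 0.062. The study names limma and an unadjusted p under 0.05. Here limma voom 3.58.1 at an adjusted p and edgeR at an unadjusted p were separate alternatives and were not combined. Others were DESeq2 1.42.0, library totals, relative log expression factors, no filter, only the 2 groups compared, a replicate block, each library left out, and, chosen after seeing the data, offsets for exon length and GC content. The fit was tested on simulated data. Replicates were compared by chi-square and none differed by as little as sampling noise. Motifs were searched in RefSeq windows with Python 3.11.15.

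Members and lists were chosen with earlier results of these data known, so no list was tested. Values per library are given for members past the threshold in any comparison, for those with the largest and smallest log2 fold change of each class in the comparisons of OE-MMP28 with control and of each antibody with OE-MMP28, and for HSPA1A and HSPA1B. Of the wider list, at most 5 called genes per direction and comparison are named for the size of their change. HSF1, and the anti-VEGFA calls lost with length and GC content modelled, are named besides.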

Additional observations from a re-analysis of the deposited data

How the results depend on the processing

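Of the 18 member calls past the edgeR threshold over the 6 comparisons, all 18 were kept under DESeq2, limma voom, library totals, relative log expression factors, no filter, the fit of 2 groups and the replicate block, 13 with length and GC offsets (chosen after seeing the data), and 0 changed sign under these. The number of members called moved more. For OE-MMP28 against control it was 2, with 5 by DESeq2, 5 with length and GC offsets and 11 at an unadjusted p under 0.05. For anti-IL-8 against OE-MMP28 it was 0, with 12 by DESeq2, 6 without a filter and 17 unadjusted. For anti-VEGFA against OE-MMP28 it was 0, with 2 by DESeq2 and 7 unadjusted. For anti-IL-8 against control it was 12, with 21 in the fit of 2 groups. For anti-VEGFA against control it was 4, with 7 without a filter, 7 with length and GC offsets and 13 unadjusted. For anti-VEGFA against anti-IL-8 it was 0, with 1 (HSPH1) by DESeq2, without a filter and with length and GC offsets, and 5 unadjusted. The cause of these shifts was not tested.

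Same-numbered replicates did not pair: the correlations of their deviations ran from -0.16 to 0.24, with 4 of 18 over 0.1. With the replicate block, anti-IL-8 against OE-MMP28 gave 4 members (HSPD1, HSPA4, HSPH1 and HSP90B1, all lower) in place of 0, and 795 genes in all in place of 0.

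Class medians moved with library totals for the cytosolic genes, to 0.23 in OE-MMP28 against control, -0.22 in anti-IL-8 against OE-MMP28, -0.038 in anti-IL-8 against control, which turns its sign, and 0.13 in anti-VEGFA against anti-IL-8. With length and GC offsets the mitochondrial medians became -0.11, 0.071 and 0.062 in anti-IL-8 against OE-MMP28, anti-IL-8 against control and anti-VEGFA against control, the CCT and prefoldin medians 0.058, 0.0041 and 0.28 in anti-IL-8 against OE-MMP28, anti-VEGFA against OE-MMP28 and anti-IL-8 against control, and the cytosolic medians -0.063, 0.092, 0.12, 0.24 and 0.12 in anti-IL-8 and anti-VEGFA against OE-MMP28, anti-IL-8 and anti-VEGFA against control and anti-VEGFA against anti-IL-8.

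Leaving out 1 library at a time gave 0 to 4 members and medians of 0.14 to 0.28 (CCT and prefoldin), 0.18 to 0.27 (cytosolic) and -0.27 to -0.13 (ER) in OE-MMP28 against control. It gave 0 to 13 members and medians of -0.29 to -0.11 (mitochondrial), -0.18 to -0.069 (cytosolic) and -0.088 to 0.13 (ER) in anti-IL-8 against OE-MMP28. It gave 0 to 4 members and medians of -0.42 to -0.16 (mitochondrial), -0.038 to 0.027 (cytosolic) and -0.25 to 0.15 (ER) in anti-VEGFA against OE-MMP28. It gave 5 to 14 members and medians of 0.040 to 0.11 (cytosolic) and -0.27 to -0.13 (ER) in anti-IL-8 against control, and 3 to 8 members and medians of 0.073 to 0.23 (cytosolic) and -0.38 to -0.16 (ER) in anti-VEGFA against control. In anti-VEGFA against anti-IL-8 it gave 0 to 1 members and medians of -0.10 to 0.073 (mitochondrial), -0.15 to -0.0034 (CCT and prefoldin), -0.0023 to 0.10 (cytosolic) and -0.23 to 0.01 (ER, above 0 without anti-VEGFA replicate 2). Over all genes it gave 295 to 641, 0 to 4125, 8 to 1402, 1312 to 4309, 662 to 2582 and 3 to 112 calls in the same 6 comparisons.

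The number of all genes called was 507 in OE-MMP28 against control (909 with length and GC offsets) and 0 in anti-IL-8 against OE-MMP28 (2391 by DESeq2, 1438 without a filter, 1 with length and GC offsets). It was 55 in anti-VEGFA against OE-MMP28 (448 by DESeq2, 400 without a filter, 1 in the fit of 2 groups), 3317 in anti-IL-8 against control (6039 in the fit of 2 groups, 1954 with length and GC offsets) and 32 in anti-VEGFA against anti-IL-8 (250 by DESeq2, 277 without a filter, 17 in the fit of 2 groups, 158 with length and GC offsets). Depth limits HSPA4L most, at 59 to 128 counts per library.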
